A study of Mus musculus with 14 samples.

Results

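The enzymes described here are Sod1, the cytosolic copper and zinc superoxide dismutase, and 9 other genes of superoxide and peroxide handling: Sod2, Sod3, Ccs, Cat, Gpx1, Gpx3, Gpx4, Prdx3 and Prdx6. They were taken by name, as every array probe whose gene symbol is one of the 10, which gave 14 probes. All 10 genes were among the 14168 genes tested. The question was whether the higher Sod1 level of Ts1Cje muscle was matched by the 6 enzymes that remove peroxide, which are Cat, Gpx1, Gpx3, Gpx4, Prdx3 and Prdx6.

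The arrays measured RNA of whole skeletal muscle from Ts1Cje mice and their disomic WT littermates, all on a C57BL/6 background. The 4 groups were the extensor digitorum longus (EDL, a fast hindlimb muscle) of Ts1Cje mice (3 arrays), the EDL of WT mice (3 arrays), the soleus (a slow hindlimb muscle) of Ts1Cje mice (4 arrays) and the soleus of WT mice (4 arrays). Age and sex are not given in the sources used here. Ts1Cje mice, used as a model of Down syndrome, are known to carry an extra copy of the part of chromosome 16 that runs from Sod1 to Zbtb21, joined to the end of chromosome 12, where a few genes are lost. The extra Sod1 copy of this line is known to be the gene-targeted, disrupted allele at which the rearrangement arose, so the segment is usually described as adding no working Sod1.

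Superoxide dismutases convert superoxide, a by-product of respiration and of oxidases in contracting muscle, into hydrogen peroxide. Sod1 works in the cytosol, Sod2 in the mitochondrial matrix and Sod3 outside the cell, and Ccs hands copper to Sod1. Hydrogen peroxide is then removed by catalase (Cat) in peroxisomes, by the glutathione peroxidases Gpx1 (cytosol and mitochondria), Gpx3 (secreted) and Gpx4 (which also reduces lipid peroxides in membranes), and by the peroxiredoxins Prdx3 (mitochondria) and Prdx6 (cytosol). The balance between the dismutase and these enzymes has long been studied in Down syndrome, since human SOD1 lies on the chromosome present in excess.

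Levels are log2 values of the array signal minus the log2 of that array's 75th percentile, so they can be compared between arrays for 1 probe but not between probes. Of the 14 probes, 13 were well above background, by the scanner software's own call, on all 14 arrays, and no probe was saturated. The exception was a further Prdx6 probe, well above background on 0 arrays and not used. The 75th percentile itself ranged from 62.4 to 143.8 intensity units, and the share of all probes that passed the same background call was 41.3% to 52.9%. The number of arrays limits the precision. Slow fibre markers fitted the labelled muscles: all 10 were lower in EDL than in soleus in both genotypes, with medians of -6.00 in Ts1Cje and -5.17 in WT.

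Only Sod1 among the 10 lies on chromosome 16. Probes for the others map to chromosome 17 (Sod2), 5 (Sod3), 19 (Ccs and Prdx3), 2 (Cat), 9 (Gpx1), 11 (Gpx3), 10 (Gpx4) and 1 (Prdx6). The Sod1 probe covers chr16:90226509-90226568 (mm9, plus strand). Its second part, bases 31 to 60, is shown because it holds ATTAAA, a variant of the polyadenylation signal (capitals), which places the probe at the 3' end of the transcript. The RNA of a disrupted allele that still has this end cannot be told apart from that of an intact allele by this probe. Catalase has 2 probes whose results differed below. Bases 31 to 60 of the brighter probe, at chr2:103294487-103294546 (mm9, minus strand), carry a run of 8 CA repeats (capitals), and the dimmer probe, at chr2:103297086-103300428 (mm9, minus strand), has 60 bases that span 3343 on the genome, so it crosses at least 1 exon junction, and is shown whole.
Sod1 probe, bases 31 to 60: ctaccctcaaaccATTAAActgtaatctga
Cat brighter probe, bases 31 to 60: tacCACACACACACACACAtgcaatacaca
Cat dimmer probe: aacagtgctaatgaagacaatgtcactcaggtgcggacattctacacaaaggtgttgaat

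Sod1 was higher in Ts1Cje than in WT mice in both muscles. In the soleus its log2 level was 6.87, 6.94, 7.12 and 6.94 on the Ts1Cje arrays, against 5.67, 6.15, 5.92 and 5.77 on the WT arrays. Every Ts1Cje soleus stood above every WT soleus. Sod1 rose 2.13-fold there (log2 1.09 ± 0.12 SE, 95% interval 0.84 to 1.34, limma adjusted p = 0.00318), where adjusted p values were taken over all 14168 genes with Benjamini-Hochberg and a gene was called under 0.05. In the EDL the level was 7.23, 6.98 and 7.32 on the Ts1Cje arrays, against 6.29, 6.41 and 6.27 on the WT arrays. Again no Ts1Cje value reached down to the WT values. The EDL difference was 1.81-fold (log2 0.86 ± 0.14 SE, interval 0.56 to 1.15), and its limma adjusted p of 0.0995 missed the threshold. It passed with quantile normalization (adjusted p = 0.0423) and with a trended, robust variance (adjusted p = 0.0265). It was not called in the other 8 alternative settings, nor on leaving out any of the 14 arrays. The EDL adjusted p was 0.163 with the slide as a block and 0.99988 with normexp background correction. In the soleus the call was lost within slide 2 alone, a fit of 7 arrays (log2 1.12, adjusted p = 0.0784).

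Across both muscles the mean Sod1 difference was 0.97 ± 0.09 SE (limma adjusted p = 0.000405). The differences in EDL and soleus were themselves -0.24 apart (interval -0.62 to 0.15, limma adjusted p = 0.988), so a muscle-dependent effect was not called. A 3 to 2 copy ratio is 0.58 on the log2 scale. The soleus interval lay above that value and the EDL interval included it. The EDL interval lay above it with a trended robust variance (0.59 to 1.12). The same held without Ts1Cje EDL replicate 2 (0.64 to 1.27) and without WT soleus replicate 2 (0.60 to 1.12). In all other settings run the EDL interval included it. In bulk tissue, more cells of a type and more RNA per cell cannot be told apart.

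**Figure D1:**
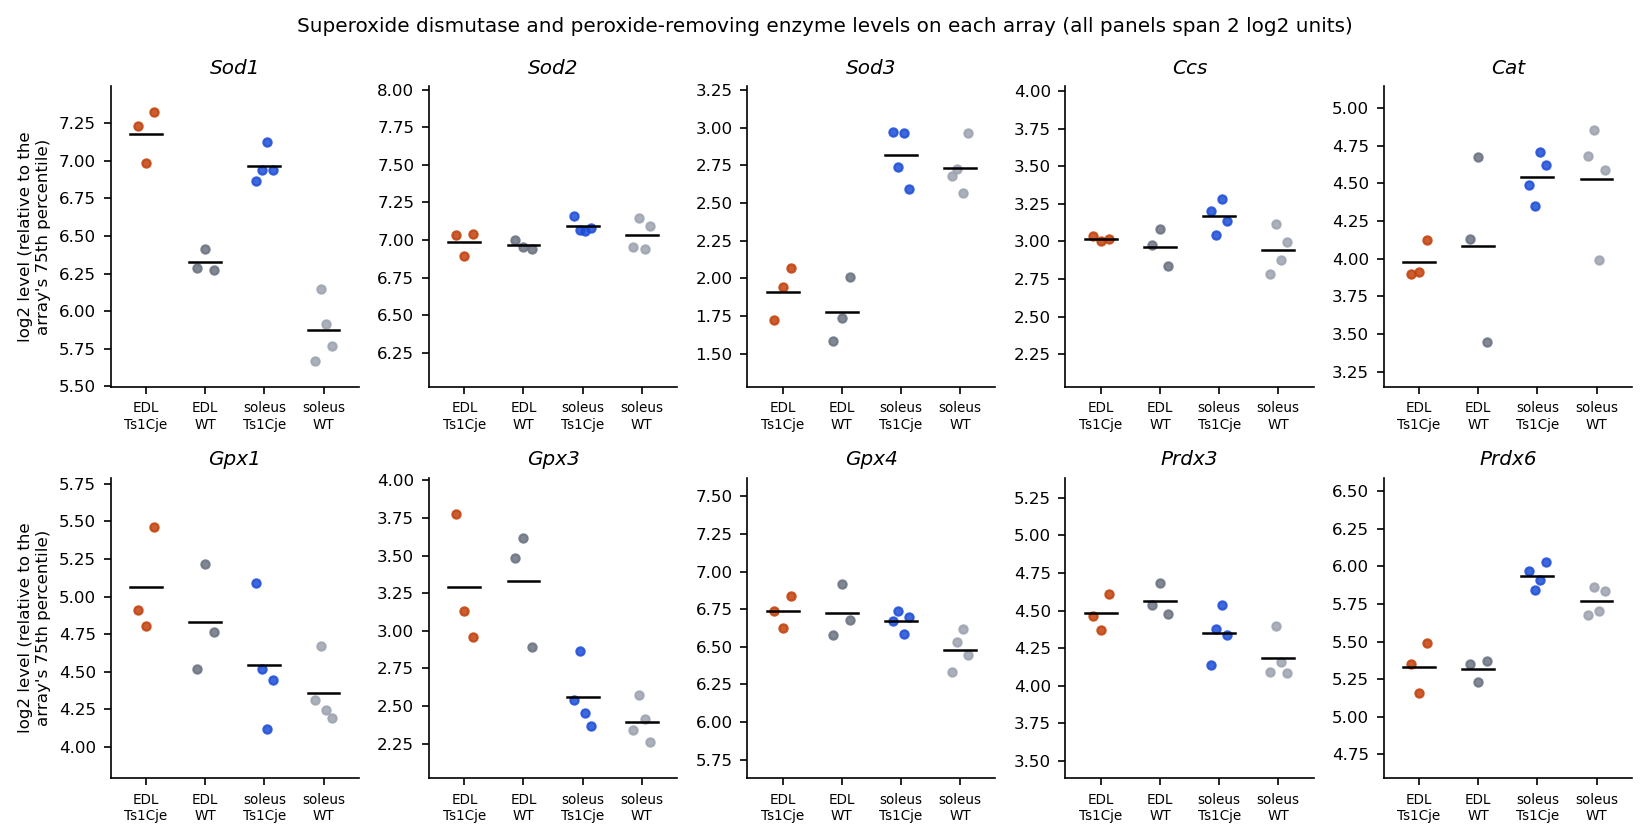
Log2 level of each of the 10 genes on each array, relative to the array's 75th percentile, in EDL and soleus of Ts1Cje and WT mice. Points are arrays, bars are group means, and every panel spans 2 log2 units. Sod1 is the panel in which the Ts1Cje points lie wholly above the WT points in both muscles, and Sod3, Gpx3 and Prdx6 separate by muscle.

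The position of Sod1 made it part of a broader pattern on chromosome 16. Among 64 other measured genes whose probes lie from the Sod1 probe to the Zbtb21 probe, the median Ts1Cje minus WT difference was 0.50 in the EDL and 0.63 in the soleus. Sod1 exceeded 61 of the 64 in each muscle. The 3 above it were Mx2, Ripply3 and Slc5a3 in the EDL, and Donson, Mx2 and Ripply3 in the soleus. No test was made of this ranking, since the probes differ in how they respond to RNA amount.

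Its immediate neighbours did not share its size. Scaf4, a splicing-related factor whose probe starts 3127 bases after that of Sod1, differed by 0.14 ± 0.20 SE in the EDL and 0.34 ± 0.18 SE in the soleus (limma adjusted p = 0.405 in the soleus). Tiam1, a Rac exchange factor whose probe starts at -438503 bases, lies on the other side, outside the stretch from Sod1 to Zbtb21. It differed by 0.11 ± 0.16 SE and -0.20 ± 0.14 SE (limma adjusted p = 0.521 in the soleus). Neither was called in either muscle, and both were named for their position after their values were seen. The next gene beyond Scaf4, the kinase gene Hunk, stood at 0.44 ± 0.26 SE in the EDL and 0.63 ± 0.23 SE in the soleus, also uncalled. Farther on, Eva1c, whose probe starts 678372 bases after that of Sod1, differed by 1.08 ± 0.19 SE in the soleus (limma adjusted p = 0.0359). Synj1 (0.78 ± 0.10 SE) and Cfap298 (0.61 ± 0.10 SE) were called there too. Mis18a (0.36), Mrap (0.19), Urb1 (0.85) and Paxbp1 (0.71), in the same stretch, were not called in the soleus. All were uncalled in the EDL.

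**Figure D2:**
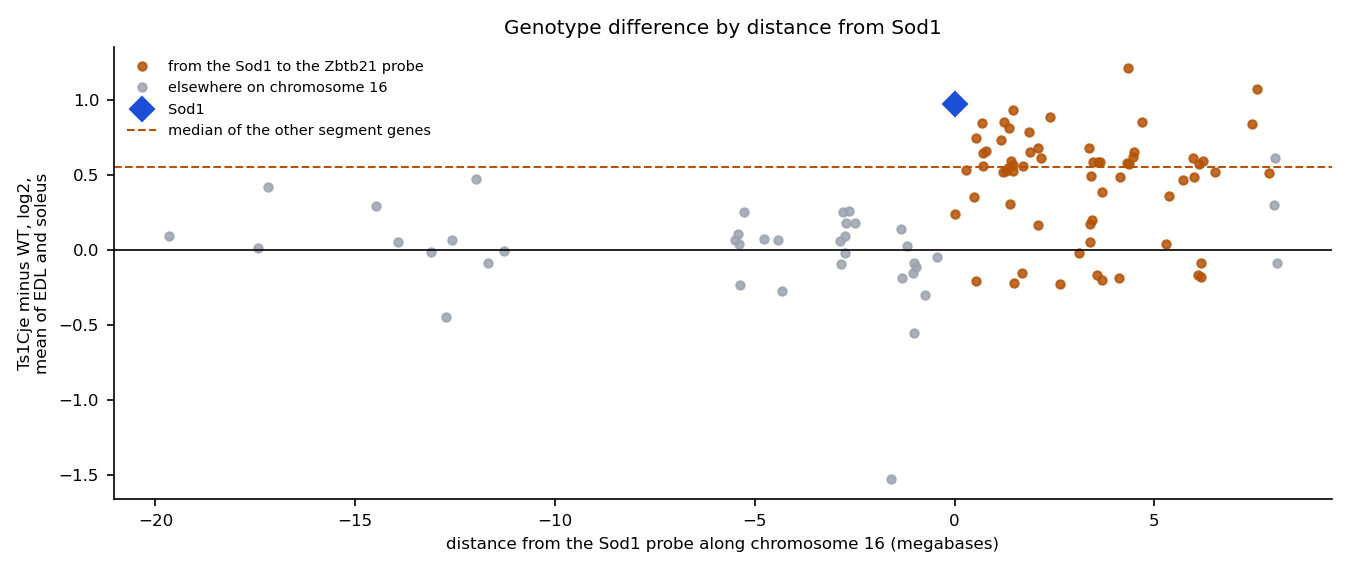
Ts1Cje minus WT difference (log2, mean of EDL and soleus) of measured genes on the part of chromosome 16 around Sod1, by distance from the Sod1 probe in megabases. Orange points are the 64 other genes from the Sod1 probe to the Zbtb21 probe, with their median of 0.55 as a dashed line, grey points lie elsewhere on the chromosome, and the diamond is Sod1 at 0.97.

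The genes whose levels followed Sod1 most closely over the 14 arrays came from the same segment. They were Smim11 (Pearson r = 0.973), Tmem50b (0.963), Gart (0.949), Pigp (0.941) and Psmg1 (0.941), all on chromosome 16. These points share arrays, muscles and genotypes, so the coefficients are descriptions. Among the other 9 enzymes the closest was Gpx4 (r = 0.639), and the least alike was Sod3 (r = -0.193).

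The other superoxide dismutases and the copper chaperone were not called for genotype. In the EDL, 0 of the 10 genes were called by limma, beside 0.00706% of all genes, and 1 of them, Sod1, had an unadjusted p under 0.05. In the soleus 1 of 10 was called, beside 0.247% of all genes (0.176% higher, 0.0706% lower), and in the mean of both muscles 1 of 10, beside 0.289% (0.261% higher, 0.0282% lower). Mitochondrial Sod2 differed by 0.02 ± 0.09 SE in the EDL and 0.06 ± 0.08 SE in the soleus, the narrowest intervals of the group (-0.18 to 0.22 and -0.12 to 0.23). Extracellular Sod3 differed by 0.13 ± 0.15 SE and 0.08 ± 0.13 SE.

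Ccs, which supplies the copper of Sod1, came nearest to the threshold. In the soleus its level was 3.20, 3.04, 3.28 and 3.14 on the Ts1Cje arrays, against 2.78, 3.11, 2.88 and 3.00 on the WT arrays. Of the 4 Ts1Cje values 3 lay above every WT value, so the groups overlapped. The difference was 0.22 ± 0.10 SE (unadjusted p = 0.0383, limma adjusted p = 0.347), and in the EDL it was 0.05 ± 0.11 SE.

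None of the 6 peroxide-removing enzymes was called in either muscle, beside 0.00706% of all genes in the EDL and 0.247% in the soleus. In the EDL their differences ran from -0.11 (Cat) to 0.23 (Gpx1), 3 above 0 and 3 below, with a median of -0.01 beside 0.00 for all genes. In the soleus all 6 were above 0, from 0.01 (Cat) to 0.19 (Gpx4), with a median of 0.17 beside 0.07 for all genes. Of all genes, 62.7% were above 0 in the soleus and 50% in the EDL. The smallest limma adjusted p of the 6 was 0.413 in the soleus, and the EDL had none with an unadjusted p under 0.05. With quantile normalization Cat turned to -0.08 in the soleus and Gpx4 to -0.00 in the EDL.

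Gpx4, the selenoprotein that reduces lipid peroxides, had log2 levels of 6.67, 6.74, 6.58 and 6.70 in Ts1Cje soleus, against 6.33, 6.53, 6.62 and 6.44 in WT soleus. The highest WT array lay above the lowest Ts1Cje array. Its soleus difference was 0.19 ± 0.10 SE (interval -0.03 to 0.41), and in the EDL it was 0.01 ± 0.12 SE. Prdx6, a peroxiredoxin that also acts on phospholipids, stood at 5.97, 5.84, 5.91 and 6.03 in Ts1Cje soleus, against 5.68, 5.86, 5.71 and 5.84 in WT soleus, a difference of 0.17 ± 0.09 SE. With this probe the 2 groups overlapped only through the lowest Ts1Cje and the highest WT array. The other detected Prdx6 probes gave 0.30 ± 0.10 SE (interval 0.07 to 0.53) and 0.10 ± 0.12 SE in the soleus. Neither was called (limma adjusted p = 0.296 and 0.707 in a fit of all kept probes). For the first of them the groups did not overlap, at 4.58 to 4.93 in Ts1Cje and 4.35 to 4.56 in WT. For the second they overlapped. How many of all probes separate by genotype in the soleus was not counted, so this lack of overlap does not set the probe apart.

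Prdx3, the main peroxiredoxin of the mitochondrial matrix, was at 4.14 to 4.54 in Ts1Cje soleus and 4.09 to 4.40 in WT soleus (0.16 ± 0.11 SE). In the EDL it was at 4.37 to 4.61 in Ts1Cje and 4.48 to 4.68 in WT (-0.08 ± 0.13 SE). The groups overlapped in both muscles. Gpx1, the abundant cytosolic glutathione peroxidase, varied more between arrays of 1 group, from 4.81 to 5.46 in Ts1Cje EDL and 4.52 to 5.22 in WT EDL. Its differences were 0.23 ± 0.25 SE in the EDL and 0.19 ± 0.22 SE in the soleus.

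Gpx3, the secreted glutathione peroxidase, differed by -0.04 ± 0.23 SE in the EDL and 0.16 ± 0.20 SE in the soleus. Cat differed by -0.11 ± 0.27 SE and 0.01 ± 0.23 SE with its brighter probe, and by -0.05 and 0.29 with the dimmer probe, which was not called either (adjusted p = 0.549 in the soleus in a fit of all kept probes). The upper ends of the 95% intervals of the 6 enzymes reached 0.19 to 0.78 in the EDL and 0.37 to 0.66 in the soleus. The Gpx1 intervals included the value of a 3 to 2 copy ratio in both muscles, and that of Gpx3 in the soleus ended at about that value (0.58).

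**Figure D3:**
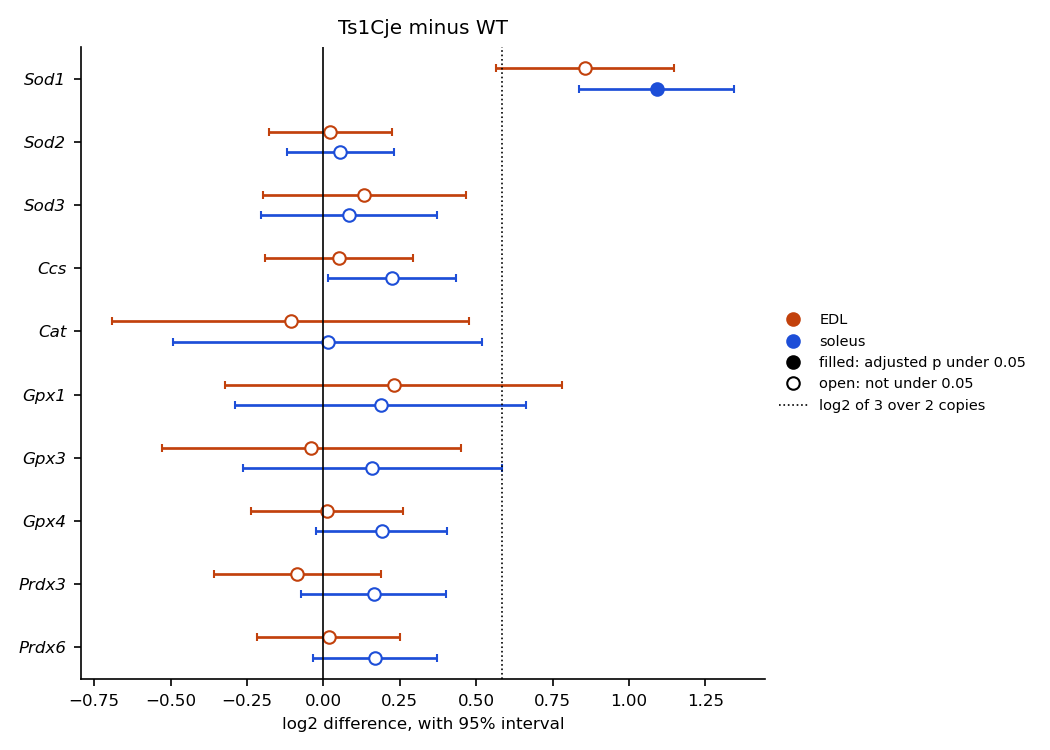
Ts1Cje minus WT difference (log2) of each gene in EDL (orange) and soleus (blue), with 95% intervals from limma. The dotted line marks 0.58, the log2 of 3 over 2 copies, and the filled symbol is the call at adjusted p under 0.05, Sod1 in the soleus. All other genes have intervals that include 0 apart from Sod1 in the EDL and Ccs in the soleus.

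Sod1 was set against each of these enzymes within arrays, as the log2 ratio of Sod1 to each enzyme, which does not depend on the scaling of an array. In every pairing of Sod1 with the 6 enzymes, and in both muscles, all Ts1Cje ratios lay above all WT ratios. The same held for the ratio of Sod1 to 83.6% of all other genes in the EDL and 85% in the soleus, so the separation was not particular to these enzymes. The Sod1 difference exceeded that of the enzyme by 0.63 (Gpx1) to 0.96 (Cat) in the EDL. In the soleus it did so by 0.90 (Gpx4) to 1.08 (Cat). The 95% interval lay above 0 for 5 of 6 enzymes in the EDL and for 6 of 6 in the soleus. Gpx3 in the EDL was the exception, at 0.90 with an interval from -0.01 to 1.80. Intervals of these ratios were unmoderated t intervals within 1 muscle (4 degrees of freedom for EDL, 6 for soleus), not limma intervals. How many of all other genes would pass the same interval criterion was not counted, so these counts do not set the 6 enzymes apart.

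The tightest of these ratios was that to Prdx3. It was 2.61 to 2.77 in Ts1Cje EDL, against 1.73 to 1.79 in WT EDL, and 2.56 to 2.73 in Ts1Cje soleus, against 1.58 to 1.76 in WT soleus. The excess of the Sod1 difference over that of Prdx3 was 0.94 ± 0.05 SE in the EDL (interval 0.80 to 1.08) and 0.93 ± 0.06 SE in the soleus (0.79 to 1.07). Against Prdx6 it was 0.84 ± 0.09 SE and 0.92 ± 0.11 SE, and against Gpx4 0.84 ± 0.08 SE and 0.90 ± 0.11 SE. Over the median of the 6 enzymes the Sod1 excess was 0.87 in the EDL and 0.92 in the soleus. No p is given for these ratios, because the genes were chosen with results of these arrays known.

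The same ratio to the chaperone Ccs was 3.98 to 4.31 in Ts1Cje EDL against 3.31 to 3.44 in WT EDL, and 3.66 to 3.90 in Ts1Cje soleus against 2.77 to 3.04 in WT soleus. Sod1 thus differed by 0.80 ± 0.10 SE and 0.87 ± 0.08 SE more than its chaperone did. Against mitochondrial Sod2 the excess was 0.83 ± 0.07 SE in the EDL and 1.04 ± 0.11 SE in the soleus, and again no ratio overlapped between genotypes.

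**Figure D4:**
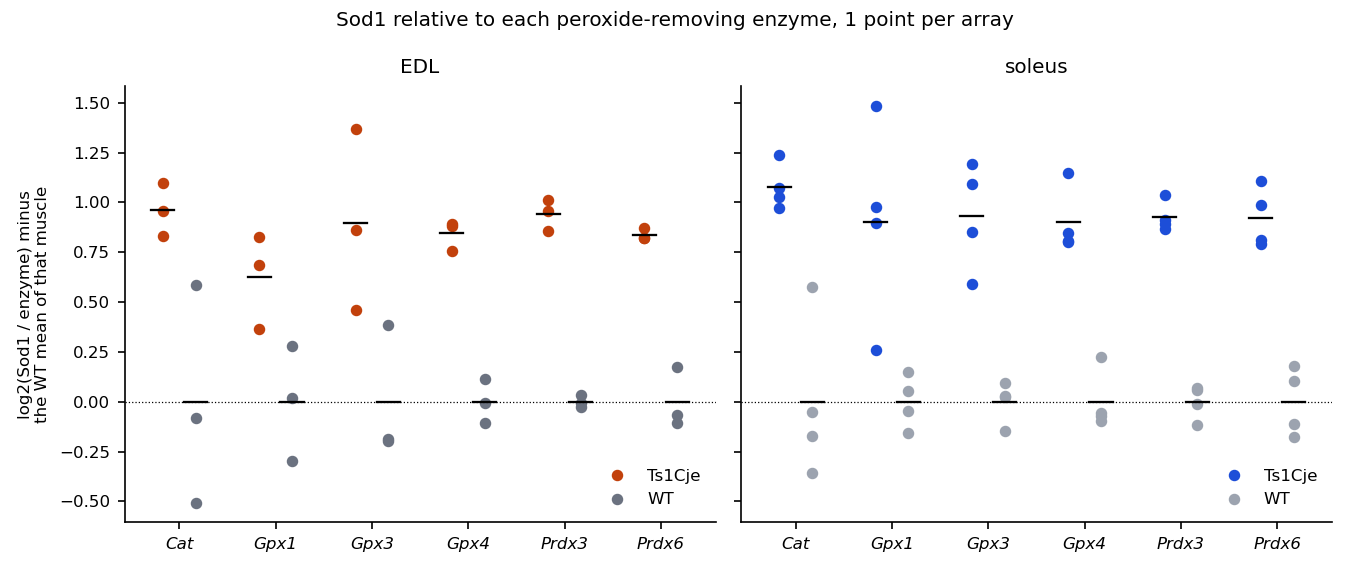
Log2 ratio of Sod1 to each of the 6 peroxide-removing enzymes on each array, minus the WT mean of that muscle, in EDL (left) and soleus (right). Points are arrays, Ts1Cje left of WT, and bars are group means. For all 6 enzymes the Ts1Cje points lie above the WT points in both muscles, by a mean of 0.63 to 0.96 in the EDL and 0.90 to 1.08 in the soleus.

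Markers of other cells and fibres moved somewhat with genotype in the soleus, where 62.7% of all genes were above 0 in Ts1Cje against WT. There, 6 of 7 measured red blood cell markers were above 0 in Ts1Cje against WT (median 0.39), with summed log2 levels of 9.14 to 9.58 in Ts1Cje and 8.66 to 9.01 in WT. Epb42 and Ahsp were among the red cell markers below the detection filter. Adipocyte markers were above 0 for 7 of 8 (median 0.34, sums 7.12 to 7.87 in Ts1Cje and 6.73 to 7.49 in WT), and slow fibre markers for 10 of 10 (median 0.20, sums 12.76 to 13.26 and 12.64 to 12.95). Vascular smooth muscle markers were above 0 for 5 of 6 (median 0.31), with sums of 7.69 to 7.90 in Ts1Cje and 7.36 to 7.66 in WT. That list includes Des, which muscle fibres also express, so its sum does not measure smooth muscle alone. Macrophage markers were above 0 for 8 of 9 (median 0.12, overlapping sums), fibroblast markers for 5 of 8 (median 0.03) and endothelial markers for 4 of 8 (median -0.01). None of these lists had a called gene, beside 0.247% of all genes called in the soleus. By contrast, 3 of 13 fast fibre genes were called lower (median -0.15 over the 13), beside 0.0706% of all genes called lower. Mitochondrial genes had a median of 0.07. Their part in the small soleus differences of the 9 enzymes other than Sod1, all 9 above 0 with a median of 0.16, was not tested. In the EDL, slow fibre markers were below 0 for 9 of 10 (median -0.65), with sums that ranged from 5.97 to 8.44 in Ts1Cje and from 5.69 to 8.91 in WT.

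The wider redox network gave no genotype call besides Sod1. Of 131 other genes on 11 lists of redox pathways, 120 were measured, and limma called 0 of them for genotype, whether in EDL, soleus, their mean or the difference between them. The shares of all genes called were 0.00706%, 0.247%, 0.289% and 0% in that order, so a count of 0 lay near the share of all genes. This count became 1 in the soleus with array weights, without WT EDL replicate 1 and without Ts1Cje soleus replicate 4. In the mean it became 1 with array weights, a trended robust variance, without WT EDL replicate 2 and without Ts1Cje soleus replicate 4. An unadjusted p under 0.05 was reached by 1 of the 120 in the EDL (409 of all 14168 genes), 17 in the soleus (1930), 11 in the mean (1344) and 2 for the difference (455). The lists covered other peroxidases, thioredoxin and glutaredoxin enzymes, glutathione synthesis, glutathione transferases, NADPH supply, the NRF2 pathway, selenoproteins, oxidant sources and the stress response. The median soleus difference of the 120 was 0.11, beside 0.07 for all genes, and the median EDL difference was 0.02, beside 0.00.

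The nearest to a call was Blvrb, biliverdin reductase B, named here after its values were seen. Its difference was 0.69 ± 0.14 SE in the soleus (limma adjusted p = 0.0837) and 0.55 ± 0.11 SE in the mean of both muscles (adjusted p = 0.0542). Blvrb is abundant in red blood cells, whose markers had the median of 0.39 given above in the soleus and -0.28 in the EDL, and their part in its value was not tested. None of the 20 measured NRF2 pathway genes was called in either muscle, beside 0.00706% of all genes in the EDL and 0.247% in the soleus. Their median in the soleus was 0.13, beside 0.07 for all genes.

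The levels of several of the enzymes differed between the 2 muscles. Between EDL and soleus, 3 of 10 genes were called in Ts1Cje mice, beside 29.9% of all genes (17.5% higher and 12.4% lower in EDL), and 5 of 10 in WT mice, beside 29.8% (20% higher and 9.77% lower). Sod3 and Prdx6 were lower and Gpx3 higher in the EDL in both genotypes. Their arrays did not overlap between muscles, but in Ts1Cje neither did those of the uncalled Sod2, Ccs and Cat. How many of all genes separate by muscle in this way was not counted. The lack of overlap given below therefore does not set a gene apart. The 6 EDL arrays lay on slide 1 with 1 soleus array, Ts1Cje replicate 1, and the other 7 soleus arrays lay on slide 2, so muscle and slide were largely confounded. With the slide as a block the calls kept were Sod3 and Prdx6 in Ts1Cje and Sod3 in WT. In that fit the muscle difference rests on the 1 soleus array of slide 1. No WT soleus array lay there, so the WT value is set through the Ts1Cje arrays. Calls kept or lost under this block, here and below, therefore cannot separate muscle from slide.

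Sod3, the secreted dismutase held in the extracellular matrix, had log2 levels of 1.72, 1.94 and 2.07 in Ts1Cje EDL, against 2.97, 2.74, 2.96 and 2.60 in Ts1Cje soleus. In WT mice it had 1.58, 1.74 and 2.01 in EDL, against 2.68, 2.72, 2.57 and 2.97 in soleus. The muscles did not overlap in either genotype. The difference was -0.91 ± 0.14 SE in Ts1Cje (limma adjusted p = 0.000481) and -0.96 ± 0.14 SE in WT (adjusted p = 0.000347). On slide 1 alone, the single Ts1Cje soleus array, at 2.97, stood above all 6 EDL arrays.

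Prdx6 had levels of 5.35, 5.16 and 5.49 in Ts1Cje EDL against 5.97, 5.84, 5.91 and 6.03 in Ts1Cje soleus, and of 5.35, 5.23 and 5.37 in WT EDL against 5.68, 5.86, 5.71 and 5.84 in WT soleus. Again all EDL values lay under all soleus values of the same genotype. It was lower in EDL by -0.61 ± 0.10 SE in Ts1Cje (limma adjusted p = 0.000721) and by -0.45 ± 0.10 SE in WT (adjusted p = 0.0048). Its 3 detected probes were all called, with differences of -0.53 to -0.79 in Ts1Cje and -0.45 to -0.53 in WT, and with correlations of 0.853 to 0.948 between probes over the 14 arrays.

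Gpx3 ran the other way. Its levels were 3.78, 3.13 and 2.96 in Ts1Cje EDL, against 2.54, 2.87, 2.45 and 2.37 in Ts1Cje soleus, and 3.49, 3.62 and 2.89 in WT EDL, against 2.34, 2.57, 2.41 and 2.26 in WT soleus. The lowest EDL array stood just above the highest soleus array in each genotype. The differences were 0.73 ± 0.21 SE in Ts1Cje (limma adjusted p = 0.02) and 0.93 ± 0.21 SE in WT (adjusted p = 0.00523), and the Ts1Cje call was lost without Ts1Cje EDL replicate 1 (0.49). Over the 14 arrays Gpx3 ran opposite to Sod3 (r = -0.892), and Sod3 alongside Prdx6 (r = 0.907), a description of arrays that share muscle and slide.

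Sod1 itself was higher in EDL than in soleus in WT mice, by 0.45 ± 0.13 SE (limma adjusted p = 0.0175), and the groups did not overlap. This call was lost with normexp background correction (0.31, adjusted p = 0.214), with quantile normalization (0.26, adjusted p = 0.0785), when the slide was blocked (0.58, adjusted p = 0.131), without a filter on dim probes (adjusted p = 0.0531) and without WT EDL replicate 2 (0.40). In Ts1Cje mice the difference was 0.21 ± 0.13 SE (adjusted p = 0.223), with overlapping groups. From high to low, the mean Sod1 level was 7.18 ± 0.18 in Ts1Cje EDL (SD, n = 3), 6.97 ± 0.11 in Ts1Cje soleus (SD, n = 4), 6.33 ± 0.08 in WT EDL (SD, n = 3) and 5.88 ± 0.21 in WT soleus (SD, n = 4). The first 2 of this order did not differ beyond their spread.

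Prdx3 was higher in EDL in WT mice (0.38 ± 0.12 SE, limma adjusted p = 0.0275), at 4.48 to 4.68 against 4.09 to 4.40 in soleus. That call did not survive normexp, quantile normalization, no filter or the slide block, nor leaving out any of 5 single arrays. In Ts1Cje mice the Prdx3 difference was 0.13 ± 0.12 SE and was not called. Sod2, Ccs, Gpx1 and Gpx4 were not called between muscles in either genotype, with differences from -0.15 to 0.52.

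The size of the catalase difference depended on its probe. With the brighter, repeat-bearing probe, EDL minus soleus was -0.57 ± 0.25 SE in Ts1Cje and -0.45 ± 0.25 SE in WT, and neither was called. Its Ts1Cje groups did not overlap (3.90 to 4.12 in EDL, 4.35 to 4.71 in soleus), while its WT groups did. In Ts1Cje it was called with normexp (limma adjusted p = 0.0323), quantile normalization (0.0456) and without WT EDL replicate 3 (0.0481). In WT it was called without WT EDL replicate 2 (limma adjusted p = 0.0405). The dimmer probe read -1.44, -1.29 and -1.12 in Ts1Cje EDL, against 0.31, 0.68, -0.02 and -0.20 in Ts1Cje soleus, and -1.01, -1.55 and -1.12 in WT EDL, against 0.01, -0.46, -0.32 and 0.39 in WT soleus. Its muscles did not overlap in either genotype. In the fit of all kept probes that probe was lower in EDL by -1.47 ± 0.24 SE in Ts1Cje (limma adjusted p = 0.000565) and by -1.13 ± 0.24 SE in WT (adjusted p = 0.00362). The 2 probes correlated at r = 0.496 over the 14 arrays.

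**Figure D5:**
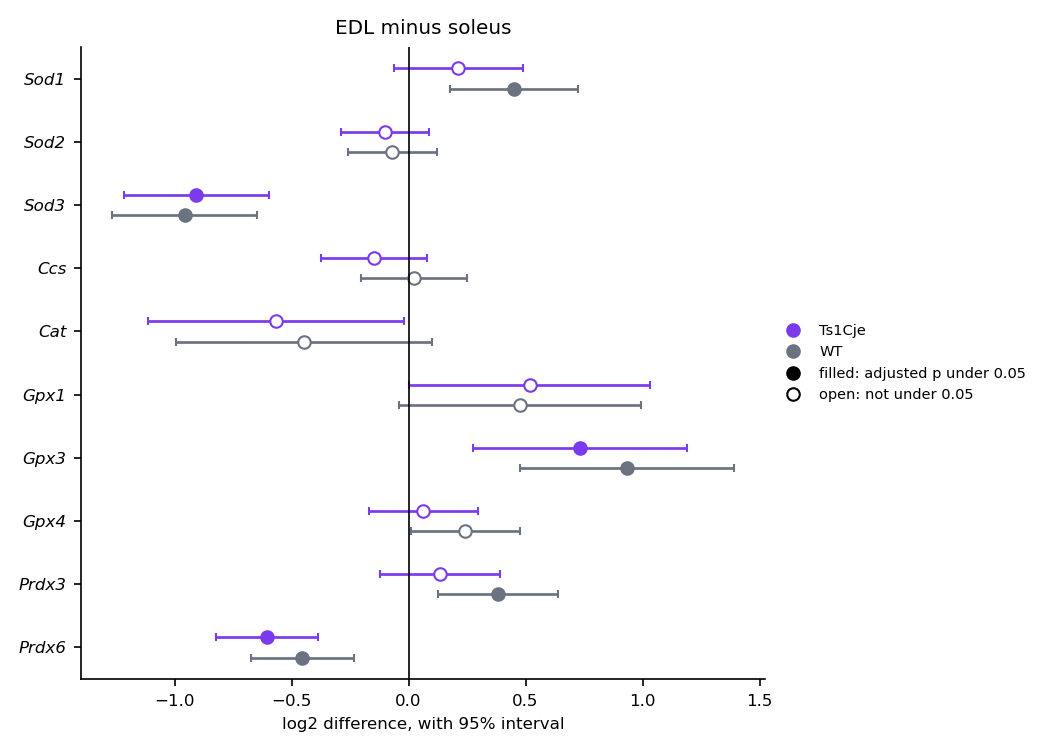
EDL minus soleus difference (log2) of each gene in Ts1Cje (purple) and WT mice (grey), with 95% intervals from limma. Filled symbols are calls at adjusted p under 0.05. Sod3 and Prdx6 lie below 0 and Gpx3 above 0 in both genotypes, while Sod1 and Prdx3 are filled in WT alone.

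The muscle difference ran through the redox lists as it did through all genes. Of the 120 other genes, 27 were called higher and 17 lower in EDL in Ts1Cje (36.7%, beside 29.9% of all genes), and 28 higher and 8 lower in WT (30%, beside 29.8%). Under the slide block 25 were called in Ts1Cje, beside 14.6% of all genes in that fit, and 16 in WT, beside 9.66%. In the selenoprotein list 7 of 13 were called higher in EDL in each genotype and 0 lower, beside 17.5% of all genes called higher in Ts1Cje and 20% in WT, among them Selenow (0.70 ± 0.13 SE in Ts1Cje, 0.94 ± 0.13 SE in WT), a small muscle selenoprotein, and Selenot (0.59 ± 0.11 SE and 0.64 ± 0.11 SE), an endoplasmic reticulum selenoprotein whose calls were lost under the slide block (adjusted p = 0.0683 in Ts1Cje and 0.128 in WT).

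Among glutathione transferases, Gstm1 was higher in EDL by 0.87 ± 0.12 SE in each genotype, Gstm2 by 1.49 ± 0.19 SE in WT and Gstm4 by 1.23 ± 0.16 SE in Ts1Cje, all of the mu class, whose members are close in sequence, and cross-hybridisation between them was not tested. Gsto1, of the omega class, was lower in EDL by -1.36 ± 0.10 SE in Ts1Cje and by -1.14 ± 0.10 SE in WT. Of 17 measured, 6 were called higher and 4 lower in Ts1Cje, beside 17.5% and 12.4% of all genes, and 6 higher and 2 lower in WT, beside 20% and 9.77%.

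NADPH feeds the glutathione and thioredoxin systems, and 2 of its suppliers differed in opposite directions. Nnt, the mitochondrial transhydrogenase, was lower in EDL by -2.99 ± 0.24 SE in Ts1Cje and by -2.64 ± 0.24 SE in WT, and Me1, the cytosolic malic enzyme, was higher by 1.73 ± 0.15 SE and 1.62 ± 0.15 SE. In the thioredoxin list, mitochondrial Txnrd2 was higher in EDL by 0.70 ± 0.11 SE in Ts1Cje and 0.79 ± 0.11 SE in WT, and Glrx, a cytosolic glutaredoxin, by 0.90 ± 0.15 SE and 0.69 ± 0.15 SE. Under the slide block Glrx was called in neither genotype (adjusted p = 0.0778 in Ts1Cje and 0.479 in WT) and Txnrd2 was not called in WT (adjusted p = 0.080). Prdx2, a cytosolic peroxiredoxin, was lower by -0.57 ± 0.09 SE in Ts1Cje and -0.33 ± 0.09 SE in WT, where the call was lost under the slide block (adjusted p = 0.143), without a filter on dim probes (0.0648) and without WT EDL replicate 1 (0.0565) or 2 (0.0527). The stress response genes Oxr1 (0.87 ± 0.10 SE in Ts1Cje, 0.99 ± 0.10 SE in WT) and Park7 (0.68 ± 0.10 SE, 0.80 ± 0.10 SE) were called higher in EDL in both genotypes.

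Beside these muscle differences, cell type markers moved too. Adipocyte markers were called lower in EDL for 8 of 8 in Ts1Cje (median -2.45) and 3 of 8 in WT (median -1.61), with 0 of 8 above 0 in either, beside 12.4% of all genes called lower in Ts1Cje and 9.77% in WT. Fast fibre genes were called higher for 11 of 13 in each genotype, with 1 lower, and mitochondrial genes for 2 of 17 in each, beside 17.5% of all genes called higher in Ts1Cje and 20% in WT. Macrophage markers were above 0 for 1 of 9 in Ts1Cje, with 2 called lower in EDL, and for 0 of 9 in WT, with 3 called lower. Red blood cell markers were above 0 for 2 of 7 in Ts1Cje and 7 of 7 in WT, with 2 called higher in each. The shares of all genes called are those just given. The part of fat, of other cells or of fibre type in the muscle differences of the 10 enzymes was not tested.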

How the data were processed

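RNA of 14 muscles was read on Agilent 1-colour arrays. The authors' scanner files hold background-subtracted signal intensity per spot, written by Feature Extraction 11.5.1.1 per the file headers (the submitters' processing notes name 9.1). The authors also deposited a table of normalized log2 values, against which the scaling used here was checked array by array. Probe positions are those the deposited files give, in mm9.

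Values are log2 of the processed signal minus the log2 75th percentile of the array, over 55681 probes after 3671 of 62976 spots were set aside as controls. Symbols were updated through the RefSeq gene table (31940 of 33822 probes with a symbol matched). Probes well above background on all arrays of at least 1 group were kept (25190), and the kept probe with the highest mean stood for its gene (14168 genes). limma 3.58.1 in R 4.3.3 (lmFit, eBayes) fitted 1 mean per group, with Benjamini-Hochberg over all genes and a threshold of 0.05. The fit was tested on simulated data. Other numbers came from Python 3.11.15. Normexp used the median spot signal with an offset of 50.

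The genes and lists were chosen with earlier results of these data known. Pathway genes are named by rule: every genotype call of a list up to 4, and its 2 smallest p values per muscle comparison. Items withheld for evaluation are not reported here. The 5 genes most correlated with Sod1 are named too, and other chromosome 16 genes and Blvrb were named after their values were seen. The alternatives tried were the authors' table, each muscle fitted alone, normexp, quantile normalization, no filter, the mean of kept probes, array weights, a trended robust variance, slide and replicate blocks, slide 2 alone and each array left out. The design text speaks of littermate pairs. Equal replicate numbers deviated together in the EDL (r = 0.40, 0.12 and 0.31) but not in the soleus (r from -0.29 to 0.01).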

Additional observations from a re-analysis of the deposited data

Results flagged for a closer look

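In 72 groups of 4 soleus arrays, from 36 genes, 5 had an array far from the other 3 of its group, where chance gives about 1 in 20 groups. None concerned Sod1 or the other 9 enzymes. In Ts1Cje soleus, 1 array stood apart for Cox17, a copper chaperone of the respiratory chain, at a log2 level of -4.75 and for Gart, a purine synthesis enzyme of the chromosome 16 segment, at 1.32. In WT soleus, 1 array stood apart for Nnt at 4.42, for Txnrd2 at 2.84 and for Gart at 0.43.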

How the results depend on the processing

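Called results for the 10 enzymes kept their direction under every alternative run. The Sod1 excess over the median enzyme stayed within its spread (0.79 to 0.90 in the EDL and 0.85 to 0.97 in the soleus when single arrays were left out). Counts of called enzymes changed as follows. In the EDL, 0 became 1 with quantile normalization and with a trended robust variance. In the soleus, 1 became 0 within slide 2. For EDL against soleus in WT, 5 became 3 with normexp and 3 without a filter, 1 with the slide as a block, 4 with quantile normalization, 6 with the mean of kept probes, and 4 to 5 when single arrays were left out. In Ts1Cje, 3 became 5 with quantile normalization, 4 with normexp and with the mean of kept probes, 2 with the slide as a block, and 2 to 4 when single arrays were left out. The replicate block was fitted for the genotype comparisons alone, not for EDL against soleus. In those it changed no call of the 10 enzymes: Sod1 had 0.86 in the EDL (adjusted p = 0.769), 1.09 in the soleus (adjusted p = 0.0475) and 0.97 in the mean (adjusted p = 0.0269). Under that block limma called 7 instead of 35 of all genes in the soleus and 5 instead of 41 in the mean.

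Small uncalled differences changed sign. With normexp these were Sod2 (-0.025), Gpx4 (-0.034) and Prdx6 (-0.030) in the EDL, Sod3 (-0.020) and Gpx1 (-0.071) for the difference between muscles, Ccs (-0.11) for muscle in WT, and Gpx4 (-0.13) and Prdx3 (-0.021) for muscle in Ts1Cje. With quantile normalization they were Gpx4 in the EDL (-0.0044), Sod2 (-0.0058) and Cat (-0.077) in the soleus, Sod2 for the difference (0.011), Sod2 (-0.00052) and Prdx3 (-0.0085) in the mean, Ccs (-0.16) for muscle in WT, and Gpx4 (-0.056) and Prdx3 (-0.0088) for muscle in Ts1Cje. Array weights turned Gpx3 (0.087) and Prdx6 (-0.0073) in the EDL and Cat in the mean (0.013), and the mean of the kept probes turned Cat in the mean (0.035). The slide block turned Ccs (-0.027) and Gpx1 (-0.25) for muscle in WT, Gpx1 (-0.026) for muscle in Ts1Cje, and Cox17 there (0.52), which had been called at -1.73 (adjusted p = 0.0456). The Cox17 call was also lost with normexp (-0.11), quantile normalization, no filter and the mean of kept probes, and on leaving out any single array except Ts1Cje soleus replicate 1. The cause was not tested.

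Leaving out single arrays gave ranges that crossed 0 in the EDL for Sod2 (-0.0040 to 0.070), Ccs (-0.013 to 0.11), Cat (-0.43 to 0.19), Gpx3 (-0.28 to 0.12), Gpx4 (-0.062 to 0.11) and Prdx6 (-0.061 to 0.11), and in the soleus for Cat (-0.16 to 0.12). They did so for the difference in Sod2 (-0.070 to 0.015), Sod3 (-0.046 to 0.17), Cat (-0.44 to 0.18) and Gpx1 (-0.16 to 0.24), for the mean in Cat (-0.21 to 0.10) and Gpx3 (-0.062 to 0.14), and for muscle in WT in Ccs (-0.037 to 0.088). Cat was called between muscles with the mean of its kept probes (-1.02 in Ts1Cje, adjusted p = 0.000408, and -0.79 in WT, adjusted p = 0.00255). The fit of all kept probes was chosen after seeing the data. The number of arrays and the sharing of slides by muscle limit what these values show.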
